A study of Mus musculus with 6 samples.

Results

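In mural granulosa cells of the mouse, 3084 of 42381 circular RNA (circRNA) were read at one time point only, either before (0-h) or 4 h after (4-h post-hCG) an ovulatory dose of human chorionic gonadotropin. The members were selected on their back-splice reads: a circRNA had to have at least 1 read in 2 or more libraries of one time point and 0 reads in all 3 libraries of the other. By this rule 1740 were 0-h-only and 1344 were 4-h-only. Since the circular reads of both time points chose the members, those reads are given as a description, and tests were made on the linear counts of the host genes, which the rule did not use.

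The libraries came from mural granulosa cells of 6 wild-type female mice of the CF-1 strain, each 21 days old and primed with 5 IU of equine chorionic gonadotropin (eCG, called PMSG in the sample labels). Of these, 3 mice were sampled 46 h after eCG alone (0-h). The other 3 had the same priming and were sampled 4 h after an injection of hCG (4-h post-hCG). Each library was of 1 mouse. The cells were released by puncture from preovulatory follicles, so each library is a mixture of many follicles of 1 mouse, and in such bulk samples fewer cells of a type and less RNA per cell cannot be told apart. Every back-splice junction, on coordinates of GRCm38, had in each library its back-splice reads and a linear count, which stands for the linear isoform (its making was not given in the sources used here).

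A circRNA forms when the 3′ end of a downstream exon is spliced back to the 5′ end of an upstream exon of the same transcript, in place of the usual forward splice. The closed circle has no cap and no poly(A) tail, resists exonucleases, and as a rule is long-lived in comparison with the linear mRNA of its gene. The joint between the last and the first exon of the circle is present in no linear transcript, and reads across it are what identify and count a circRNA. Mural granulosa cells line the wall of the follicle and carry the LH receptor. The LH surge, which hCG stands in for, acts through cAMP and EGF-like factors, ends granulosa cell growth, and starts matrix remodelling, progesterone synthesis and ovulation.

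The joints of the 4 circRNA with the most reads at each time point, among those read in all 3 of its libraries and by the rule of choice given with the processing, show what was counted. Each sequence is taken from GRCm38.p6 in the direction of the transcript, with the last 15 bases of the last exon of the circle in lower case and the first 15 bases of its first exon in capitals. The 0-h-only joints were of Dock1, exons 2 to 10 of 52 (chr7:134724330-134747043, plus strand), Khdrbs3, exons 5 to 7 of 11 (chr15:69024700-69049461, plus strand), Pi4kb, exons 2 to 8 of 11 (chr3:94983983-94999113, plus strand) and Usp34, exons 23 to 30 of 80 (chr11:23382554-23401578, plus strand).
Dock1: ctttcggcgtggctgCCTTTTACAACTACG
Khdrbs3: caccccagcacaaagGACTATAATGATGAA
Pi4kb: gcaagtcaaggacagCTTGGAAGCTCGAAG
Usp34: gtctcagacgagcagATGCCCCAGCTTAAA
The 4-h-only joints were of Lepr, exons 2 to 4 of 19 (chr4:101728010-101735683, plus strand), Igf1r, exons 4 to 5 of 21 (chr7:68169897-68173375, plus strand), Lepr, exons 2 to 5 of 19 (chr4:101728010-101745716, plus strand) and Npr3, exons 3 to 4 of 9 (chr15:11883298-11895804, minus strand).
Lepr exons 2 to 4: tcttttatatgatctGTGTACACCTCTGAA
Igf1r: ggagcagctggaaggCATGTACTGTATCCC
Lepr exons 2 to 5: agcccatgcttgttgGTGTACACCTCTGAA
Npr3: aatgaggaggattacTGGTGATCATGTGTG
The 2 circRNA of Lepr share the capitals, since both begin at exon 2, and differ in the exon that is joined back to it. The genome was read for the usual splice sites on either side of the circle, AG before its first exon and GT after its last. These bases were found for 1736 (99.8%) of the 0-h-only and 1340 (99.7%) of the 4-h-only circRNA. They were also found for 7203 (99.6%) of 7231 circRNA read in 2 or 3 libraries that included both time points. Every member matched exons of an annotated transcript, next to which such bases are usual. The shares are therefore a description and do not test whether the junctions are real.

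Most members rested on a handful of reads. The 0-h-only circRNA had a median of 4 reads over the 6 libraries (2 to 20), and 740 of them (42.5%) had 2 or 3 reads. The 4-h-only circRNA had a median of 4 reads as well (2 to 29), and 591 (44.0%) had 2 or 3 reads. At least 10 reads were found for 55 and 46 circRNA, and a read in all 3 libraries of the time point for 204 and 136. Just outside the rule, 887 circRNA read in 2 or more libraries of 0-h and 772 read in 2 or more of 4-h post-hCG had 1 read at the other time point. A further 12697 and 11831 circRNA were read in 1 library only. Together the members made up 2.90% to 3.20% of circRNA reads in the 0-h libraries and 2.45% to 2.61% in those of 4-h post-hCG. Reads of all circRNA numbered 65994 to 91854 in the 0-h libraries (median 88435), and 66593 to 89982 (median 76498) in the libraries of 4-h post-hCG. Replicate 1 of 4-h post-hCG had the fewest circRNA detected (12879, against 14414 to 15710 in the other 5 libraries) at one of the highest read totals.

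Seen against all 17853 circRNA read in 2 or more libraries, the 0-h-only members were 9.75% and the 4-h-only members 7.53%. These shares were set beside those of circRNA read in the same number of libraries. Of 6796 circRNA read in exactly 2 libraries, 22.6% had both of them at 0-h, 17.8% had both at 4-h post-hCG and 59.6% had 1 at each time point. A pair of 0-h libraries alone held 492, 495 and 549 circRNA, a pair of 4-h post-hCG libraries 351, 402 and 455, and the 9 mixed pairs 352 to 561 (median 451). The ranges overlapped, and the numbers of a single time point stood within those of mixed pairs except for 1 pair of 4-h post-hCG libraries with 351. Of 3519 circRNA read in exactly 3 libraries, 5.80% (204) were read in the 3 libraries of 0-h, 3.86% (136) in the 3 of 4-h post-hCG and 90.3% in libraries of both. The 18 mixed combinations of 3 libraries held 124 to 241 circRNA (median 176), and both the 0-h and the 4-h post-hCG numbers lay within that range. The counts depended on the number of libraries at hand. The 0-h-only count was 696, 699 and 753 without 0-h replicate 1, 2 and 3, and the 4-h-only count was 591, 487 and 538 without 4-h post-hCG replicate 1, 2 and 3. Without a library of the other time point, where 2 libraries instead of 3 had to lack a read, the counts rose. The 4-h-only count was 2042, 1940 and 1937 without 0-h replicate 1, 2 and 3. The 0-h-only count was 2365, 2602 and 2503 without 4-h post-hCG replicate 1, 2 and 3.

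**Figure D1:**
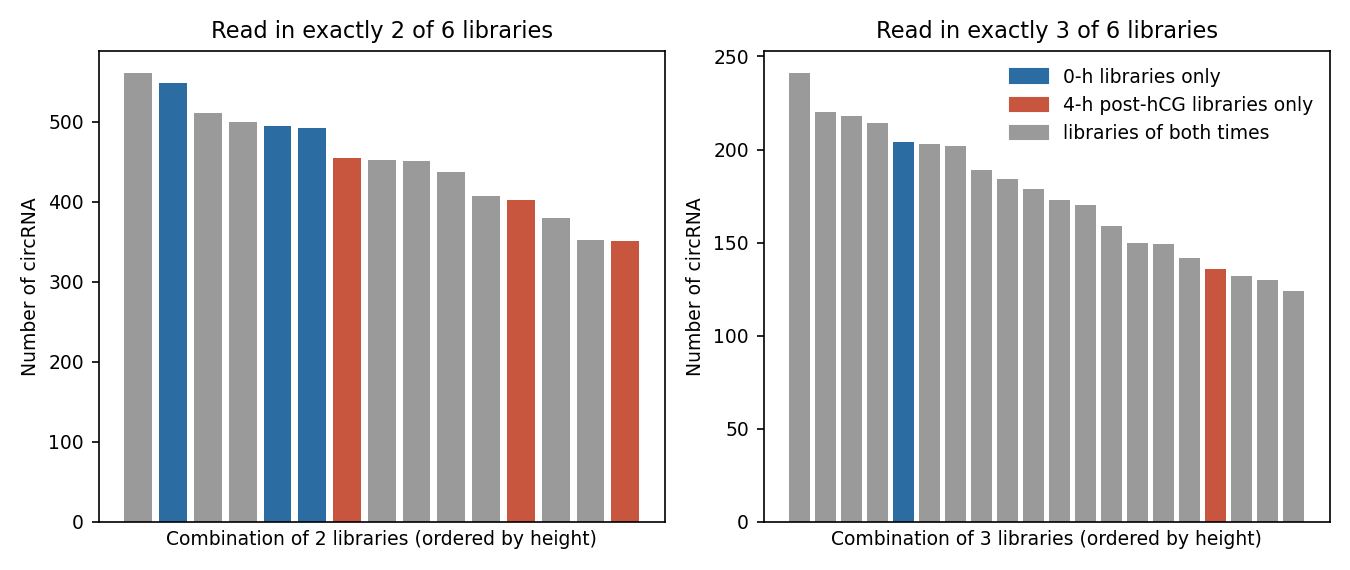
Number of circRNA (y axis) read in each combination of exactly 2 (left) or exactly 3 (right) of the 6 libraries, ordered by height, 1 bar per combination. Bars of 0-h libraries only (blue; 492 to 549 for pairs, 204 for all 3) and of 4-h post-hCG libraries only (red; 351 to 455 for pairs, 136 for all 3) stand among those of mixed combinations (grey; 352 to 561 and 124 to 241).

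Among the 4-h-only circRNA, the most reads belonged to Lepr, the leptin receptor. The circle of its exons 2 to 4 (514 nt of exon) had 20, 4 and 5 reads in the 3 libraries of 4-h post-hCG. The circle of exons 2 to 5 (720 nt) had 11, 7 and 4 reads. In both, replicate 1 of 4-h post-hCG gave the most. The linear count at the ends of the first circle was 16, 4 and 2 at 0-h and 329, 232 and 324 at 4-h post-hCG, with groups that did not overlap. The linear RNA of Lepr was higher at 4-h post-hCG by 5.45 ± 0.367 on the log2 scale (SE, edgeR adjusted p = 7.85e-11), and by 6.73 without 0-h replicate 1. Other circRNA of Lepr were read at both time points, with 2, 2 and 1 reads at 0-h and 0, 3 and 9 at 4-h post-hCG. At the ratio of 3.28 circular reads per 100 linear counts seen at 4-h post-hCG, the linear count of 0-h would give 0.721 reads of the first circle in all. Such ratios, here and below, rest on the reads that chose the member and are biased upwards. The lack of reads they are set against is fixed by the rule, so they are a description only.

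Npr3 is the clearance receptor for natriuretic peptides. Its circle of exons 3 and 4 had 11, 3 and 5 reads at 4-h post-hCG. The linear count at its ends was 7, 0 and 3 at 0-h and 245, 116 and 139 at 4-h post-hCG, and the linear RNA of the gene rose by 5.68 ± 0.427 (adjusted p = 4.79e-10). The rise was 6.79 without 0-h replicate 1, 5.04 without 0-h replicate 2 and 7.40 with a junction that is not a member standing for the gene. Here too the ratio of circular to linear reads would give less than 1 read at 0-h (0.380). Megf10, a receptor for the engulfment of dying cells, had a circle of exons 2 to 4 with 1, 4 and 9 reads. Its linear count went from 8 in each 0-h library to 53, 28 and 28, and the linear RNA rose by 2.73 ± 0.449 (adjusted p = 6.94e-05), or by 3.53 without 0-h replicate 2.

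Igf1r, the receptor for IGF-1, held the second most reads of all members at a much higher level of linear RNA. The circle of exons 4 and 5 had 19, 5 and 2 reads at 4-h post-hCG. Its linear count was already 358, 410 and 417 at 0-h and reached 1128, 911 and 952, and the linear RNA of the gene rose by 1.49 ± 0.162 (adjusted p = 2.30e-07). At the ratio of 4-h post-hCG, 0.869 circular reads per 100 linear counts, the linear count of 0-h would give 10.3 reads. Replicate 1 held 19 of the reads behind that ratio, and the lack of reads at 0-h is set by the rule. Igf1r had other members of both time points. A circle of exons 6 to 13 was 4-h-only with 2, 1 and 0 reads. A circle of exons 3 to 10 was 0-h-only with 0, 1 and 3 reads, as were circles of exons 3 to 20 and of exons 8 to 11 with 2 reads each. The circRNA of Igf1r that were not members summed to 87, 87 and 70 reads at 0-h and 83, 89 and 79 at 4-h post-hCG, ranges that overlap.

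The next 4-h-only circRNA were of genes with a linear rise or with no linear difference that passed in every setting. Ranbp2, a nucleoporin, had 8, 4 and 4 reads of a circle of exons 23 and 24, and its linear RNA rose by 0.85 ± 0.191 (adjusted p = 0.00189). Ephx2, the soluble epoxide hydrolase, had 9, 2 and 2 reads of exons 3 and 4, beside a linear count of 1387, 1038 and 736 at 0-h and 6333, 5736 and 5732 at 4-h post-hCG, and a rise of the gene by 2.38 ± 0.202 (adjusted p = 4.24e-09). The highest linear count of any junction was 7945 to 7951 in all 6 libraries, and whether large counts such as those of Ephx2 were capped was not tested. Xpo7, a nuclear export receptor, had 5, 3 and 5 reads of exons 4 to 6, spread over all 3 libraries. Its linear count was 430, 539 and 398 at 0-h and 423, 278 and 218 at 4-h post-hCG, and the fold of its linear RNA was under the threshold (-0.49 ± 0.157, adjusted p = 0.0241). Without 4-h post-hCG replicate 1 that value was -0.67 and passed. The ratio of Xpo7 would give 19.3 reads at 0-h. Cbfa2t2, a transcriptional corepressor, had 6, 3 and 4 reads of exons 2 and 3 and a linear difference of -0.15 ± 0.218 (adjusted p = 0.660), which turned to 0.01 without 4-h post-hCG replicate 1. Ift81, part of the transport machinery of cilia, had 7, 5 and 2 reads of exons 9 to 11. Its linear RNA was lower by the test (-0.63 ± 0.270, adjusted p = 0.0861), a call that was lost without any one of 0-h replicates 1, 2 and 3 (-0.68, -0.57 and -0.63) or without 4-h post-hCG replicate 1 (-0.41), and under the test of DESeq2 (-0.63). With the junction of median linear count the value was 0.11. At the ends of this circle the linear count was 19, 25 and 10 at 0-h and 21, 23 and 10 at 4-h post-hCG, a difference of 0.09 (adjusted p = 0.896).

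Among the 0-h-only circRNA, Dock1, an activator of the GTPase Rac, had the most reads. Its circle of exons 2 to 10 (939 nt) had 6, 4 and 10 reads at 0-h. The linear count at its ends was 149, 177 and 165 at 0-h and 100, 108 and 75 at 4-h post-hCG, groups that did not overlap. The linear RNA of Dock1 was lower by 0.64 ± 0.164 on the log2 scale (edgeR adjusted p = 0.00521), and by 0.55 without 0-h replicate 3, under the fold asked. At the ratio of 0-h, 11.5 reads would be left at 4-h post-hCG. The other circRNA of Dock1 gave 62, 83 and 39 reads at 0-h and 56, 47 and 44 at 4-h post-hCG, and the groups overlapped.

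Khdrbs3, an RNA-binding protein that regulates splicing, had evenly spread reads, 5, 7 and 6 for exons 5 to 7. Its linear count was 243, 253 and 191 at 0-h and 187, 196 and 118 at 4-h post-hCG, with a linear difference of the gene under the fold asked (-0.50 ± 0.152, adjusted p = 0.0178). Pi4kb, a phosphatidylinositol 4-kinase, had 12, 2 and 2 reads, most of them in replicate 1, and a linear difference of 0.14 ± 0.210 (adjusted p = 0.660) that became -0.09 without 4-h post-hCG replicate 2. Vwa8, a mitochondrial ATPase, had 3, 7 and 2 reads and a linear difference of -0.54 ± 0.163 (adjusted p = 0.0172), which passed without 4-h post-hCG replicate 3 (-0.67) and with the junction of median linear count (-0.60). Reads of 3, 7 and 2 were also found for a joint within Cdan1 and Ttbk2, which overlap in the annotation, and for Pdss1, an enzyme of coenzyme Q synthesis. Tiam2, another activator of Rac, had 10, 1 and 1 reads and Phtf2 9, 1 and 2, so that replicate 1 carried both. Pfkfb1, a regulator of glycolysis, had 2, 5 and 5 reads beside linear counts of 11, 3 and 5, too low to be tested.

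**Figure D2:**
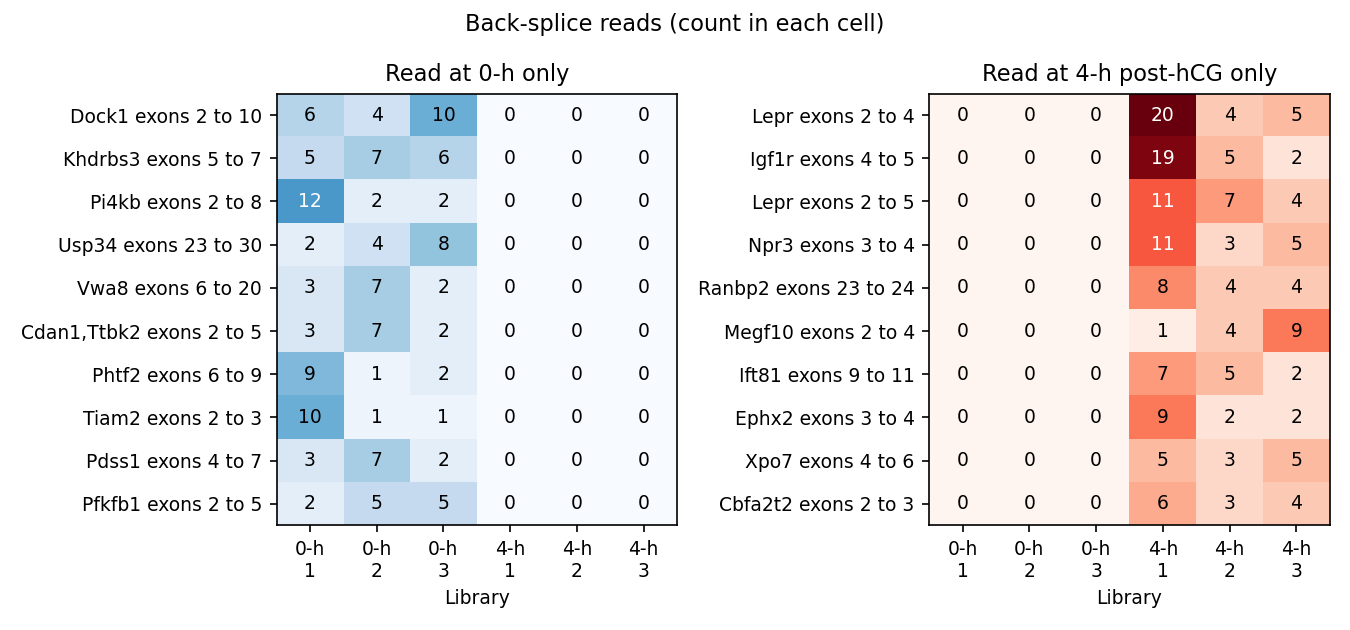
Back-splice reads in each of the 6 libraries (columns) for the 10 circRNA with the most reads among those read in all 3 libraries of 0-h (left, blue) or of 4-h post-hCG (right, red), with the count written in each cell. The zeros of the other time point are set by the rule, while reads within the time point are uneven, from 6, 4 and 10 for Dock1 to 20, 4 and 5 for Lepr.

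The linear RNA of the host genes was compared between the time points over all 6956 gene names that passed the filter on low counts, of which 13% were higher and 12.8% lower at 4-h post-hCG (edgeR, adjusted p ≤ 0.1 with at least a 1.5-fold difference). The 4-h-only circRNA came from 1102 gene names, of which 1072 were tested. Of these, 167 (15.6%) were higher and 113 (10.5%) lower, with a median log2 difference of 0.04 against -0.01 over all genes. The 0-h-only circRNA came from 1379 gene names, of which 1314 were tested. Of these, 106 (8.07%) were higher and 172 (13.1%) lower, with a median of -0.08. The share of hosts lower in linear RNA was thus close to that of all genes for the 0-h-only circRNA, and the share higher was below it. For circRNA read in 2 or 3 libraries that included both time points, the shares of their 3330 hosts tested were 13% and 11.8%.

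With stricter reads the shares of the 4-h-only hosts moved further from those of all genes. These cuts use the circular reads of one time point, which chose the members, and all genes had no such cut. Reads there can depend on the level of the gene, so the shift is a description and no test. For the circRNA read in all 3 libraries of 4-h post-hCG, 29 (22.8%) of 127 hosts were higher and 10 (7.87%) lower. Where at least 10 reads were found, 15 (34.1%) of 44 hosts were higher and 3 (6.82%) lower. At 0-h, 13 (6.84%) of 190 hosts of circRNA read in all 3 libraries were higher and 30 (15.8%) lower, and with at least 10 reads 3 (5.77%) of 52 were higher and 10 (19.2%) lower. Even in the strictest of these groups, most hosts passed the test in neither direction. Counted at the ends of each circRNA in place of the gene, 12.4% of 40108 circRNA were higher and 12.2% lower in linear count. Of the 4-h-only circRNA, 223 (17.2%) of 1293 were higher and 139 (10.8%) lower, and of the 0-h-only circRNA, 148 (9.01%) of 1643 were higher and 231 (14.1%) lower. Circles of 1 gene share ends, so these numbers are not independent of each other.

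**Figure D3:**
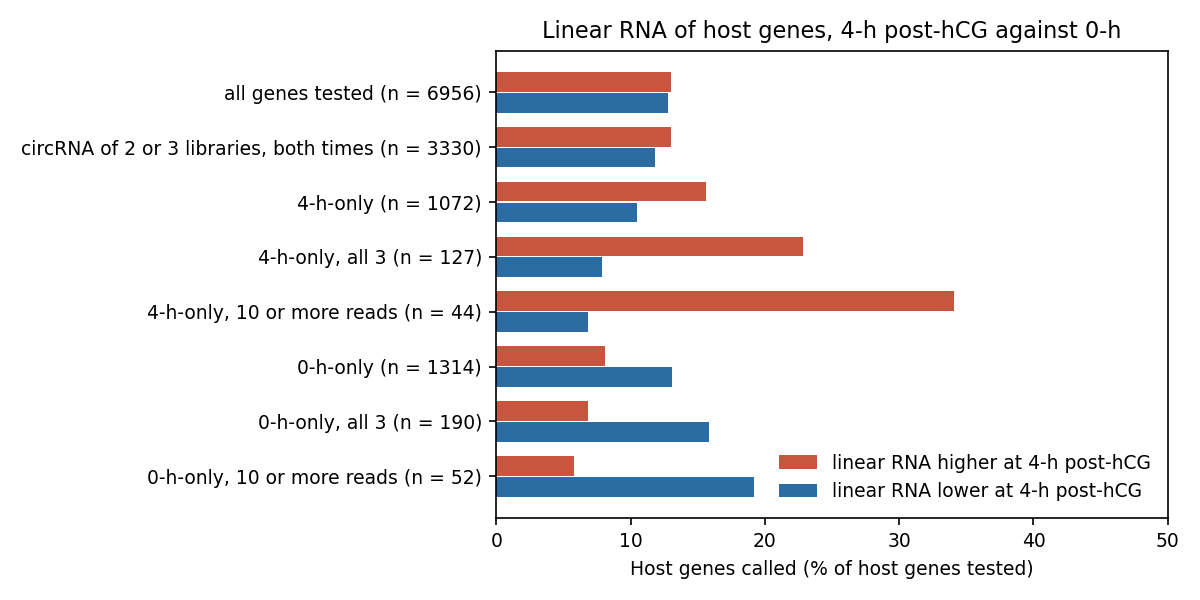
Share of host genes tested (x axis, %) whose linear RNA was higher (red) or lower (blue) at 4-h post-hCG than at 0-h, for all genes and for hosts of each class of circRNA, with the number of hosts tested in brackets. The share higher goes from 13% of all genes to 34.1% of the hosts of 4-h-only circRNA with at least 10 reads, and from 13% to 5.77% for the 0-h-only circRNA. The classes are cut on the circular reads that chose the members, so the shift is a description only.

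Some circRNA were read only at the time point where the linear RNA of their gene was low. Adamts3, a proteinase that trims procollagen, had 1, 7 and 1 reads of a circle of its exon 3 alone at 0-h, where the linear count at the same ends was 1 in each library. There were thus 300.0 circular reads per 100 linear counts. At 4-h post-hCG the linear count was 49, 23 and 24 with no circular read, and the linear RNA of Adamts3 rose by 4.92 ± 0.596 (adjusted p = 1.19e-06). Replicate 2 held 7 of the 9 reads. In all, 8 of 1740 0-h-only and 6 of 1343 4-h-only circRNA with a linear count had more circular than linear reads at their time point. The share among other circRNA was not counted, so these numbers show no trait of the members.

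Map3k2, a kinase upstream of the MAP kinases, had 3, 4 and 2 reads of exons 2 to 12 at 0-h, while its linear count went from 8, 22 and 13 to 80, 48 and 54 and its linear RNA rose by 1.62 ± 0.215 (adjusted p = 4.22e-06). The ubiquitin ligase Wwp1 (0, 8 and 3 reads) and Usp34, a deubiquitinating enzyme (2, 4 and 8 reads), were 0-h-only with linear rises of 0.76 ± 0.222 (adjusted p = 0.0130) and 0.63 ± 0.193 (adjusted p = 0.0180). Both rises fell below the fold when 1 library was left out, to 0.58 for Wwp1 without 0-h replicate 3 and to 0.46 for Usp34 without 0-h replicate 1. The rise of Usp34 was also below it with the junction of median linear count (0.56) and at the ends of the circle itself (0.55, adjusted p = 0.0887). Bmpr1a, a type I receptor for bone morphogenetic proteins, had 4, 2 and 4 reads of exons 9 and 10 at 0-h and a linear rise of 0.67 ± 0.160 (adjusted p = 0.00305), or 0.58 without 4-h post-hCG replicate 3. At the ends of this circle the difference was 0.50, under the fold asked. The ratio of 0-h would give 13.1 reads of it at 4-h post-hCG.

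The same was seen among 4-h-only circRNA, some of whose genes had lower linear RNA at 4-h post-hCG. Slc12a7, a potassium chloride cotransporter, had 6, 2 and 0 reads of exons 4 to 6, while its linear count went from 652, 603 and 565 at 0-h to 233, 195 and 97. Its linear RNA fell by 1.74 on the log2 scale (SE 0.172, adjusted p = 4.91e-08), and the ratio of 4-h post-hCG would give 27.7 reads at 0-h. Habp4, which binds hyaluronan and RNA, had 8, 1 and 1 reads and a linear change of -1.49 ± 0.282 (adjusted p = 3.58e-04). No other circRNA of Habp4 was read in any library. Bcat2, the mitochondrial branched-chain aminotransferase, had 11, 0 and 1 reads with a linear change of -0.88 ± 0.185 (adjusted p = 0.00105), and the synaptic scaffold Tanc2 had 1, 7 and 0 reads with -0.81 ± 0.163 (adjusted p = 6.69e-04). In Slc12a7, Habp4, Bcat2 and Tanc2, 1 library held most of the reads.

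Other 0-h-only circRNA went with a fall of the linear RNA. Nek7, a kinase of the mitotic spindle and the NLRP3 inflammasome, had 2 members, exons 4 to 7 (6, 6 and 0 reads) and exons 2 to 5 (5, 5 and 1 reads), with a linear change of -1.25 ± 0.296 (adjusted p = 0.00280). Rcbtb2 had 5, 13 and 0 reads of exons 2 to 14, nearly the whole transcript of 15 exons, and a linear change of -0.83 ± 0.195 (adjusted p = 0.00266).

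**Figure D4:**
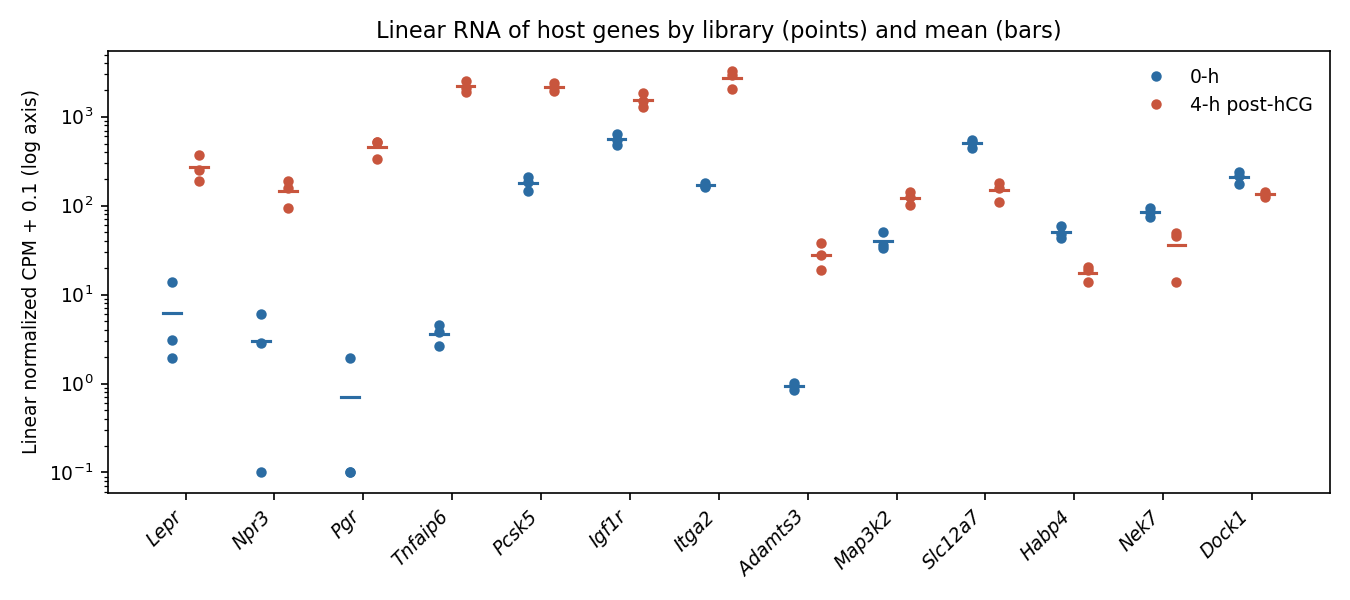
Linear RNA of 13 host genes of circRNA read at one time point only, as normalized CPM plus 0.1 on a log axis, for each library (points) and as the mean (bars) at 0-h (blue) and 4-h post-hCG (red). Lepr lies at 1.83 to 13.6 in the blue points and 188 to 371 in the red, while Slc12a7, host of a 4-h-only circRNA, lies at 445 to 554 and 111 to 180.2, and Adamts3, host of a 0-h-only circRNA, at 0.738 to 0.913 and 18.7 to 37.9.

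Over all members, the circular reads were few beside the linear ones, with a median of 1.72 circular reads per 100 linear counts for the 0-h-only and 1.64 for the 4-h-only circRNA. Each member's ratio at its own time point was applied to its linear count at the other. For 40 (2.30%) of the 0-h-only and 80 (5.96%) of 1343 4-h-only circRNA, fewer than 1 read would then be found in the 3 libraries. For 980 (56.3%) and 887 (66.0%), 3 or more reads would be found. Since the members were selected for having reads at one time point, their ratios there are biased upwards, and the values are a description only. Most hosts had other circRNA at both time points. Other circRNA of the gene were read at both time points for 1182 (85.7%) of 1379 hosts of 0-h-only and 931 (84.5%) of 1102 hosts of 4-h-only circRNA, and no other circRNA was read for 85 and 90 hosts. Among all 7668 genes with a circRNA that is not a member, such circRNA were read at both time points for 5471. Whether the hosts differ from other genes in this was not tested.

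Most hosts gave 1 member, 1102 of the 1379 at 0-h and 913 of the 1102 at 4-h post-hCG, and 356 genes had members of both time points. Pcsk5, a proprotein convertase that matures growth factors of the TGF-beta family, had 6 circRNA at 4-h post-hCG only, the most of any gene there. The circle of exons 11 to 14 had 4, 4 and 1 reads and that of exons 11 and 12 had 3, 0 and 5, and the other 4 had 2 to 5 reads each. Its linear RNA rose by 3.59 ± 0.172 (adjusted p = 2.52e-13). Its circRNA that were not members were also read more at 4-h post-hCG, 85, 79 and 83 reads against 32, 23 and 16 at 0-h. The other hosts with many 4-h-only members were Mad1l1 of the spindle checkpoint, Dennd1b, a regulator of Rab GTPases, Csmd1 and the formin Diap3, none of which passed the linear test. Mad1l1 and Dennd1b were also hosts of several 0-h-only circRNA, with 3 or 4 reads each in Mad1l1 and 2 to 6 in Dennd1b. At 0-h the most members were found for Ano4, of the anoctamin family of membrane proteins, with 7 circles of 2 to 5 reads. Its linear RNA changed by -0.60 ± 0.170 (adjusted p = 0.0104), or by -0.46 without 0-h replicate 3 or without 4-h post-hCG replicate 1. Map3k5, an apoptosis signalling kinase, followed with 6, and the potassium channel Kcnt2, the dystrophin relative Utrn and Gm15800 had 5 each.

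The members were also read by gene lists, each given with the linear RNA of its measured genes beside the 13% higher and 12.8% lower over all genes. The numbers of members in each list stand beside 1740 0-h-only and 1344 4-h-only circRNA in all. How many circRNA each list hosts was not counted, so these numbers do not show whether a list differs from other genes. Of the genes induced by LH in ovulation, 13 of 17 measured entries rose and none fell (median log2 difference 2.94). They hosted 5 of the 4-h-only circRNA and 1 of the 0-h-only. Pgr, the progesterone receptor without which follicles do not rupture, had a linear count of 0, 0 and 2 at 0-h and 673, 414 and 458 at 4-h post-hCG (9.45 ± 0.400, adjusted p = 3.54e-14). That difference was 8.86 without 0-h replicate 2, 12.09 without 0-h replicate 3 and 11.37 with a junction that is not a member standing for the gene. Its circle of exons 3 and 4 had 1, 2 and 0 reads. Tnfaip6, which links hyaluronan in the expanding cumulus matrix, rose by 9.22 ± 0.256 (adjusted p = 3.25e-17) with 1, 0 and 2 reads of exons 2 to 4. Versican (Vcan), another matrix component, rose by 2.89 ± 0.172 (adjusted p = 9.34e-12), with 0, 4 and 1 reads of exons 3 to 5, and its circRNA that were not members were read 39, 41 and 31 times at 0-h and 177, 60 and 153 times at 4-h post-hCG. Nrip1, also 4-h-only with 1, 2 and 0 reads, had no linear rise (-0.25 ± 0.163, edgeR adjusted p = 0.269). Adamts9, a proteinase that cleaves versican, was the only 0-h-only host of the list, with 0, 1 and 2 reads and a linear rise of 2.94 ± 0.163 (adjusted p = 2.88e-12).

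Genes of steroid and cholesterol metabolism had 9 of 20 entries higher and 2 lower, with 7 circRNA at 4-h post-hCG only and 2 at 0-h only. Scarb1, the receptor that takes up cholesterol from HDL, had 5, 0 and 3 reads of exons 5 and 6 and a linear rise of 1.53 ± 0.179 (adjusted p = 7.15e-07). Cyp51, lanosterol demethylase, had 2, 2 and 0 reads and a rise of 1.79 ± 0.169 (adjusted p = 2.38e-08). Soat1 had members of both time points, with 0, 5 and 1 reads at 4-h post-hCG and 0, 1 and 2 at 0-h. Its linear difference was under the fold asked (0.41 ± 0.160, edgeR adjusted p = 0.0582). Srebf2 was 0-h-only with 0, 6 and 1 reads, and its linear difference was also under the fold (0.51 ± 0.144, edgeR adjusted p = 0.0107). At the ends of the Srebf2 circle the linear count was higher by 0.65. Of the follicle growth genes, 9 of 33 entries were higher and 8 lower, with 14 circRNA at 4-h post-hCG only and 9 at 0-h only. Smad5, a transducer of BMP signals, had 3, 0 and 8 reads at 4-h post-hCG. Acvr1, a type I receptor of the same family, had 7, 1 and 0 reads and a rise of 0.92 ± 0.269 (adjusted p = 0.0136), and did not pass without 4-h post-hCG replicate 1 (0.57) or with the junction of median linear count (0.63). Greb1, a target of oestrogen receptors, had members of both time points, 2 at 0-h and 3 at 4-h post-hCG, while its linear RNA changed by -0.92 ± 0.144 (adjusted p = 3.58e-05).

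For cAMP and PKA genes, 8 of 36 entries were higher and 5 lower, with 10 circRNA at 0-h only and 5 at 4-h post-hCG only. Rapgef4, an exchange factor that cAMP activates directly, had 3, 6 and 1 reads of exons 7 to 22 at 0-h. Adcy9, an adenylyl cyclase, had 0, 4 and 2 reads at 0-h and a linear change of -1.40 ± 0.175 (adjusted p = 1.93e-06). Crem, a transcription factor induced by cAMP, had 5, 5 and 0 reads of exons 2 and 3 at 4-h post-hCG and a linear rise of 3.26 ± 0.311 (adjusted p = 2.76e-08). The rise was 1.75 with the junction of median linear count standing for the gene, and 1.75 at the ends of this circle. In the EGF and ERK list, 7 of 25 entries were higher and 4 lower, with 12 circRNA at 0-h only and 5 at 4-h post-hCG only. Sos2, an activator of Ras, gave 3 of the 12, the most read of them with 0, 3 and 1 reads, while its linear RNA rose by 2.00 ± 0.181 (adjusted p = 1.17e-08).

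Cell cycle genes had no entry of 57 higher and 14 lower, with a median of -0.34. They hosted 33 of the 0-h-only circRNA in 27 entries and 19 of the 4-h-only in 15. The kinesin Kif18a had 5, 2 and 1 reads at 0-h and the checkpoint kinase Bub1b 0, 5 and 2. Neither gene passed the linear test (-0.01 ± 0.432, edgeR adjusted p = 0.988, and -0.44 ± 0.150, edgeR adjusted p = 0.0338, under the fold asked). At the ends of the Bub1b circle the linear count was lower (-0.70, edgeR adjusted p = 0.0140). Pola1, the catalytic subunit of DNA polymerase alpha, had 6, 0 and 4 reads at 4-h post-hCG. Brca2, of homologous recombination, had members of both time points, and its circle of exons 3 to 7 had 3, 0 and 5 reads at 4-h post-hCG beside a linear change of -1.35 ± 0.314 (adjusted p = 0.00245). Of the matrix and adhesion genes, 8 of 33 entries were higher and 1 lower, with 12 circRNA at 0-h only and 6 at 4-h post-hCG only. Integrin alpha 2 (Itga2), a collagen receptor, showed both in circles that start at the same exon. Exons 5 to 25 were read 4, 0 and 3 times at 0-h and exons 5 to 10 were read 4, 1 and 0 times at 4-h post-hCG, while the linear RNA rose by 4.03 ± 0.187 (adjusted p = 1.41e-13). Integrin alpha V (Itgav) likewise had exons 2 and 3 at 0-h only (5, 0 and 1 reads) and exons 13 and 14 at 4-h post-hCG only (0, 10 and 2 reads), with a linear rise of 1.26 ± 0.144 (adjusted p = 4.56e-07).

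In build, the members resembled other circRNA of few libraries. The median was 4 exons for the 0-h-only, the 4-h-only and the 7231 circRNA of 2 or 3 libraries of both time points, and 62.8%, 63.0% and 64.5% of them held 2 to 5 exons. Their median length in exon sequence was 591, 578.5 and 563 nt. Their first exon was exon 2 of the transcript for 24.5%, 25.6% and 24.4%. The introns on both sides of the circle had a median summed length of 11965, 11002 and 11446 bp. The 3253 circRNA read in all 6 libraries differed from these classes in having longer flanking introns (22789 bp) and a start at exon 2 in 34.0%. An end was shared with a circRNA read in all 6 libraries by 414 (23.8%) of the 0-h-only and 313 (23.3%) of the 4-h-only circRNA, and by 1890 (26.1%) of those of both time points.

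The cell type of the libraries was read from the linear counts of marker genes that host a circRNA. Of the granulosa markers, 6 of 10 genes were measured in 7 entries, with Esr2 in more than 1 entry. These entries summed to 6343 to 8892 normalized CPM in the 0-h libraries, and to 7366 to 7481 after hCG. Among them, Inhba was higher and Fshr, Cyp19a1 and Esr2 were lower at 4-h post-hCG. Inhba was at 2275, 4497 and 2053 normalized CPM at 0-h and at 4270.3, 4252 and 4775 after hCG, so that replicate 2 of 0-h lay within the later range. The theca and stroma markers (3 of 9 genes measured) summed to 1103 to 1834 and 1195 to 1436, with Col3a1 holding most. The oocyte (2 of 10, in 3 entries), endothelial (5 of 7, 1 tested) and leukocyte (3 of 8) markers summed to at most 157 in each library, and none of them passed the test. Of the erythroid markers, Alas2 rose by 1.10 (adjusted p = 0.00189) and Slc4a1 by 0.62 (adjusted p = 0.0699). Alas2 was at 162, 209.5 and 164 normalized CPM at 0-h and at 514, 456 and 175 after hCG, and Slc4a1 was at 89.2, 95.9 and 84.0 and at 193, 149 and 65.3, so that replicate 3 of 4-h post-hCG lay near or below the 0-h libraries. None of these erythroid markers and none of the oocyte or theca and stroma markers hosted a circRNA read at one time point only, while Tek and Vwf of the endothelium and Emr1 of the leukocytes hosted 0-h-only circRNA of 2 reads each.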

How the data were processed

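Per the paper's methods, stranded total RNA was sequenced as paired ends and reads were checked with FastQC, trimmed with cutadapt and mapped with TopHat and TopHat-Fusion (GRCm38), and CIRCexplorer found the back splices. The authors deposited raw counts of back-splice reads and linear counts for 316626 junctions in 6 libraries, of which 42381 are typed circRNA (37 with no gene name). A second deposited table, with scaled values and the authors' own fold changes, p-values and FDR, was not used.

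The circRNA read at one time point only were found in the circular counts, and the members, gene lists and named genes were chosen with earlier results of these data known. Linear counts were tested with edgeR 4.0.16 (quasi-likelihood, TMM, filterByExpr, R 4.3.3) over all genes, with each gene represented by its junction of most linear counts, and again over the ends of every circRNA. A two-sided Benjamini-Hochberg adjusted p ≤ 0.1 with a difference of 1.5-fold or more passed. Standard errors were derived from the F statistic. DESeq2 1.42.0, no filter, other junctions, a replicate block and leaving out each library were alternatives. Per time point, the genes named are the 10 circRNA with the most reads in all 3 libraries, the 5 hosts with the most members, 5 members each with linear RNA passing in the same and the opposite direction, members of each list and genes with members of both. Joint sequences are of the first 4 circRNA that are not on chromosome 18. Some genes that the rule or a marker list takes are not reported here or are given as counts only. Linear totals over circRNA were 5070799 to 7452634 per library. No fold is given for the circular reads, which chose the members. The script was tested on simulated counts. Python 3.11.15, pandas 2.3.3, numpy 2.4.6 and matplotlib 3.10.9 made the tables and figures.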

Additional observations from a re-analysis of the deposited data

How the results depend on the processing

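The number of circRNA read at one time point only followed the rule. A read in all 3 libraries left 204 at 0-h and 136 at 4-h post-hCG, and at least 2 reads in 2 or more libraries left 575 and 429. Allowing 1 read in all at the other time point gave 2627 and 2116, and taking junctions of every type that name a gene gave 2146 at 4-h post-hCG. With 1 library left out at a time, the counts ran from 696 to 2602 for 0-h-only circRNA and from 487 to 2042 for 4-h-only ones. The rule kept asking for 2 libraries with a read, so that both libraries left at a time point had to hold one, while 2 libraries instead of 3 had to lack one at the other. The numbers of genes and of circRNA ends passing the linear test stayed within 1.5 times under every alternative. An alternative chosen after seeing the data, the highest junction that is not a member standing for the gene, gave 98 higher and 162 lower hosts of 0-h-only and 147 and 102 of 4-h-only circRNA. With the replicate number as a block, 105 and 167 hosts of 0-h-only and 166 and 110 hosts of 4-h-only circRNA passed. No pairing by number was seen: deviations of same-numbered libraries correlated at 0.03, -0.07 and -0.03, and not every library correlated best with its own number. With 3 libraries per time point, these deviations cannot exclude a shared batch. With the junction of median linear count standing for the gene, Cbfa2t2 (0.22), Dennd1b (0.16), Ift81 (0.11) and Mad1l1 (-0.14) changed sign, and so did Cbfa2t2 without 4-h post-hCG replicate 1 (0.01; -0.34 to 0.01 over all libraries left out) and Pi4kb without 4-h post-hCG replicate 2 (-0.09; -0.09 to 0.29). The cause was not tested. Of the 42 host genes followed, these were 6 of all values, 479 kept their direction and side of the threshold, 14 lost it and 3 gained it. With 3 mice per time point and mostly 2 to 4 reads per circRNA, 0 reads at a time point is no measure of absence.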
